A study of Homo sapiens with 2 samples.

Results

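The HOX cluster genes described here are 38 genes of the HOXA, HOXB, HOXC and HOXD clusters, chosen by gene symbol and matched to Ensembl identifiers in a count table of 60683 genes. All 38 had a row. The rule for the choice used no measured value, but earlier results of these data were known when it was made. The libraries came from HEK293T, a human embryonic kidney line that carries the SV40 large T antigen. Both samples are 1 group, in which FKBP5, the gene of an HSP90 co-chaperone, was stably knocked down with shRNAs. Total RNA was extracted with TRIzol, and directional libraries were made with a modified NEBNext Ultra II protocol. Cells with a scramble control are mentioned in the extraction protocol and were not analysed here, so no effect of the knockdown was measured and the levels below describe knockdown cells alone. The labels do not say whether the 2 samples were separate cultures, and the difference between these libraries may be technical. Nor do they say how many clones or shRNAs the samples hold.

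HOX genes encode homeodomain transcription factors that give positions along the body axis their identity. In each cluster the genes share a direction of transcription and are numbered by paralog group, so that low numbers lie at the 3′ end and high numbers at the 5′ end. During development 3′ genes come on earlier and further forward than 5′ genes, Polycomb complexes hold silent stretches of a cluster closed, MLL/COMPASS complexes mark active stretches, and HOX10 and HOX11 paralogs take part in forming the kidney.

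Sample 1 held 9997706 counts and sample 2 held 21284648 counts. Levels are in CPM, counts scaled to a common library size. A count of 3, taken as the limit that a count of 0 allows, was worth 0.289 CPM in the first sample and 0.137 CPM in the second. FKBP5, the targeted gene, was at 3.95 CPM (41 counts) in the first and at 3.52 CPM (77 counts) in the second. The 10 genes listed for the HEK293T line were each at 1 CPM or more, led by NEFL (mean 297 CPM), VIM (128 CPM) and LIN28B (101 CPM). Markers of other cell types were mostly low: 5 of 7 genes of differentiated tubule or podocyte, 5 of 6 of blood, 3 of 6 of fibroblast and 2 of 3 of endothelium were under 1 CPM. In samples 1 and 2 the summed levels were 37.8 and 40.6 CPM for the tubule or podocyte genes, 62.8 and 72.6 CPM for the fibroblast genes, and 1.93 and 3.02 CPM for the endothelium genes. LRP2 (mean 36.0 CPM), COL1A1 (59.7 CPM) and VWF (1.78 CPM) led these lists. The part of other cell types in the HOX values was not tested.

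Most HOX genes of all 4 clusters were expressed. A mean of at least 1 CPM was reached by 35 of 38 members: 10 of 10 in HOXA, 9 of 10 in HOXB, 8 of 9 in HOXC and 8 of 9 in HOXD. Of the 38, 3 were under 1 CPM, 7 lay between 1 and 10 CPM, 23 between 10 and 50 CPM and 5 at 50 CPM or more. Among 19910 protein-coding genes of the table, 66.5% reached 1 CPM and 50.2% reached 10 CPM, beside 92.1% and 73.7% of the HOX members. Together the members held 11254 counts in sample 1 and 24368 in sample 2, or 0.113% and 0.114% of all counts. In bulk RNA, fewer cells with a transcript and less transcript per cell cannot be told apart.

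**Figure D1:**
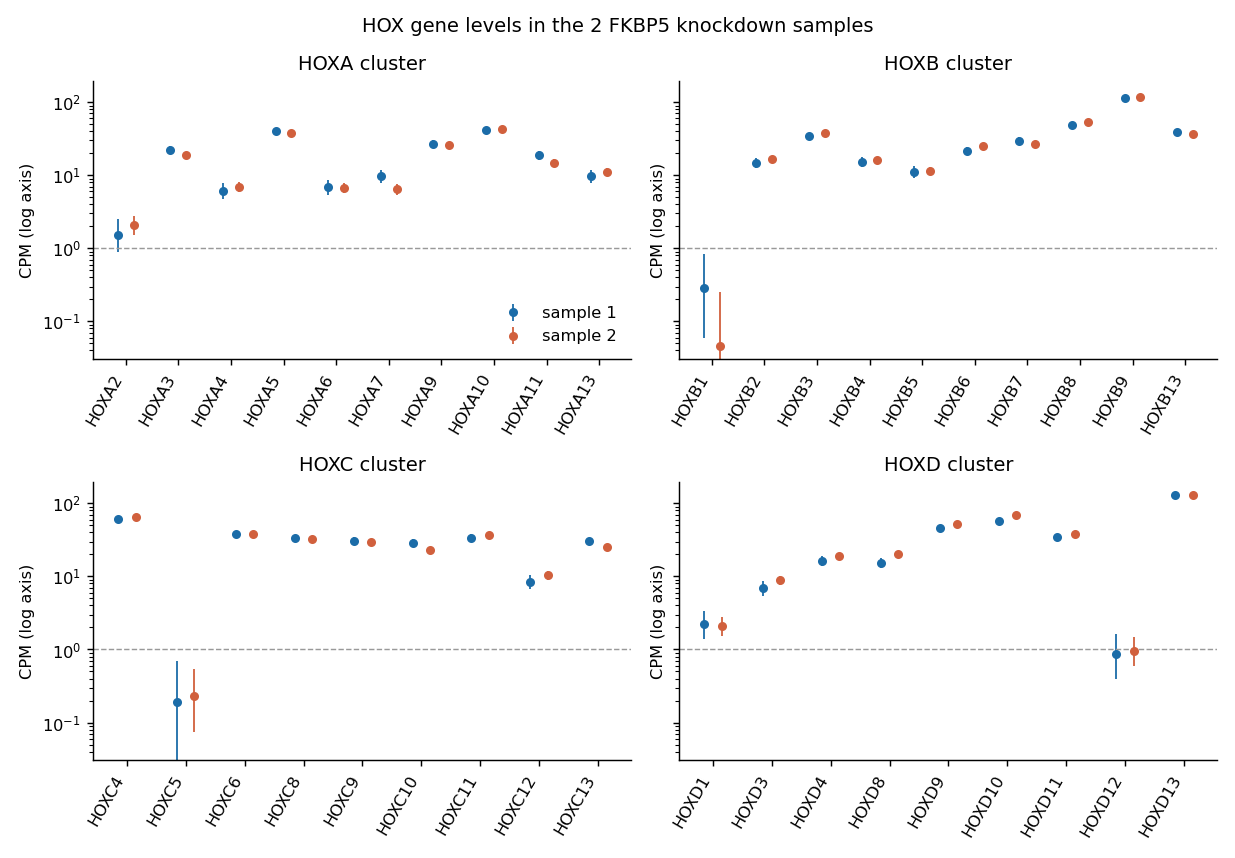
CPM of each HOX gene (log axis) in sample 1 and sample 2, by cluster and paralog number, with exact 95% Poisson intervals; an interval that reaches the lower edge of a panel goes on below it. HOXB1, HOXC5 and HOXD12 lie under 1 CPM, and HOXB9 and HOXD13 stand at the top with means of 116 and 129 CPM.

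Levels of different genes were compared after division by the kilobases of their annotated exons (CPM per kb). On that scale the median was 8.80 CPM per kb over the 38 HOX members and 1.94 over all protein-coding genes, and among genes at 1 CPM or more it was 10.8 and 5.72. HOXD13 and HOXB9 stood apart at the top, HOXD13 with 57.8 ± 0.768 CPM per kb (SD, n = 2, as for every mean below) and HOXB9 with 45.1 ± 1.38. Of the protein-coding genes, 97.1% lay below HOXD13 and 95.9% below HOXB9 per kb. HOXD9 at 26.2 ± 2.47, HOXB8 at 24.8 ± 1.91, HOXD10 at 23.5 ± 2.94, HOXC4 at 23.0 ± 1.37 and HOXA5 at 22.7 ± 1.03 CPM per kb came next. With the median transcript as length HOXB8 led instead, so the order, its top included, depends on the length used. The counting intervals of neighbours in the order stayed apart in both samples for 3 of 37 pairs, HOXD13 over HOXB9, HOXB9 over HOXD9 and HOXD11 over HOXD4, so the other neighbours in the order were not separated by their counts. These intervals cover counting error only, and not sequence shared with other genes. In HOXD4 23.5% of the 50-base stretches were unique, but AC009336.2, which overlaps 80.5% of its exon bases, has no row in the count table. Whether shared sequence changed the HOXD4 count was not tested.

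HOXD, on chromosome 2 of GRCh38 (176092891 to 176190907, plus strand, members' outer ends), held the highest and one of the lowest HOX transcripts side by side. HOXD13, which patterns digits and the genital tubercle, lies at chr2:176092891-176095938 and had 1356 counts (131 CPM) in sample 1 and 2803 counts (128 CPM) in sample 2. HOXD12, its neighbour at chr2:176099730-176101193, had 9 counts (0.867 CPM) and 21 counts (0.961 CPM), and HOXD11, a limb and kidney patterning gene at chr2:176104216-176109754, had 359 counts (34.6 CPM) and 822 counts (37.6 CPM). Per kb, HOXD12 averaged 0.679 ± 0.0491, HOXD11 17.1 ± 1.01 and HOXD13 57.8 ± 0.768 CPM, and the intervals of HOXD12 lay far under those of both neighbours in each sample.

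The stretches before these 3 starts are shown because genes with such unequal levels lie next to each other, together with that of HOXB1, which had the lowest mean. Each is the 250 bases upstream of the RefSeq start on GRCh38.p14, written 5′ to 3′ on the gene's strand, with every CG dinucleotide in capitals. The windows are chr2:176092471-176092720 (plus strand) for HOXD13, chr2:176099545-176099794 (plus) for HOXD12, chr2:176107030-176107279 (plus) for HOXD11 and chr17:48531012-48531261 (minus) for HOXB1. The RefSeq starts differ from the outer ends of the GENCODE 29 gene models used for the levels: the HOXD11 window lies inside the HOXD11 interval given above, and the HOXD12 window runs past the start of the HOXD12 interval.
HOXD13: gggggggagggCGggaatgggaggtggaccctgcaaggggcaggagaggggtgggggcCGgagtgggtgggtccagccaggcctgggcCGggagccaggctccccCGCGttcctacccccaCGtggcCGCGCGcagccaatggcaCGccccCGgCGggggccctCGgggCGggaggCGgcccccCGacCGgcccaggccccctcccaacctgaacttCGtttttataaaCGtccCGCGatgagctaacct
HOXD12: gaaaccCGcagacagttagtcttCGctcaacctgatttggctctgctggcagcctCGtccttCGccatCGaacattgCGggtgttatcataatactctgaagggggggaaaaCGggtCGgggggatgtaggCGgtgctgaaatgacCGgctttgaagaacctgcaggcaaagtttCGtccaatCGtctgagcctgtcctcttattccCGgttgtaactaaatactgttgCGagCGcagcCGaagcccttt
HOXD11: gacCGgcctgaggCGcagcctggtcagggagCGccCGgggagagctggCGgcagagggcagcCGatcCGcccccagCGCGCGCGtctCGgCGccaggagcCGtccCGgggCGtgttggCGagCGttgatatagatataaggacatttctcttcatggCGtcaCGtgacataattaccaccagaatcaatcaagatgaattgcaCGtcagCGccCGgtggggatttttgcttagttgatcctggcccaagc
HOXB1: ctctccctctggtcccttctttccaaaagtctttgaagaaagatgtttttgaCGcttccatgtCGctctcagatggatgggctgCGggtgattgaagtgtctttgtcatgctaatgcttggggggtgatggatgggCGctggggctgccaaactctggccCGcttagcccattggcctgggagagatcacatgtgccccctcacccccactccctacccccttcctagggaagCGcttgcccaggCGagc
The HOXD13 window holds 21 CG, HOXD12 16, HOXD11 23 and HOXB1 7, and of 35116 windows of this length over all genes 69.8%, 59.0%, 74.2% and 41.1% hold fewer. Over the 20 members matched to the RefSeq table, with 27 windows, the median was 19 CG, beside 11 over all windows, and 21 of the 27 held at least 11, as 50.3% of all windows did. Of the 20, 18 had a single window, while HOXA3 and HOXA10 had several. HOXC4 and HOXC5 had the same window, the only one from HOXC, and HOXB1 was the only HOXB member. The clusters thus weigh unequally in this median. The HOXD12 window thus lies above the median of all genes although its transcript was under 1 CPM. These are counts of letters, and methylation was not measured.

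On the 3′ side of HOXD11, levels per kb were high at HOXD10 and HOXD9 and lower beyond them. HOXD10, a motor neuron and limb gene, had 597 counts (57.5 CPM) in sample 1 and 1502 counts (68.7 CPM) in sample 2. HOXD9 had 475 counts (45.8 CPM) and 1143 (52.3 CPM). Both exceeded HOXD8 per kb, 6.76 ± 1.27 CPM, which had 160 counts (15.4 CPM) and 440 (20.1 CPM). HOXD4, a hindbrain and vertebral gene, had 169 counts (16.3 CPM) and 411 (18.8 CPM), while HOXD3 averaged 7.91 ± 1.37 CPM and HOXD1, at the 3′ end, 2.16 ± 0.0791 CPM. Paralogs 9 to 13 thus held 85.8% and 84.3% of the summed HOXD level per kb in samples 1 and 2. In HOXA, HOXB and HOXC the same paralogs held 41.5% and 42.2%, 43.7% and 42.9%, and 52.6% and 49.9%.

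HOXB, on chromosome 17 (48528526 to 48729178, minus strand), peaked at HOXB9 and was lower on its 3′ side. HOXB9, at chr17:48621159-48626356, acts in thoracic patterning and had 1182 counts (114 CPM) in sample 1 and 2600 counts (119 CPM) in sample 2. HOXB13, a prostate and tail gene set apart from the others by a long gap, had 408 counts (39.3 CPM) and 812 (37.2 CPM). HOXB8, which acts in spinal and myeloid cells, had 499 counts (48.1 CPM) and 1172 (53.6 CPM). Per kb of annotated exons HOXB9 was above both, HOXB8 at 24.8 ± 1.91 and HOXB13 at 11.03 ± 0.442 CPM per kb, with intervals that did not meet in either sample. With the median transcript as length HOXB8 was above HOXB9.

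The middle of HOXB was lower. HOXB7 had 306 counts (29.5 CPM) and 586 (26.8 CPM), or 18.4 ± 1.24 CPM per kb. HOXB6 had 222 (21.4 CPM) and 555 (25.4 CPM), and HOXB5, a neural crest and lung gene, 116 (11.2 CPM) and 252 (11.5 CPM). Per kb HOXB6 averaged 8.98 ± 1.09 and HOXB5 5.56 ± 0.122, so both were under HOXB7. HOXB4, known for its action in blood stem cells, had 156 counts (15.04 CPM) and 349 (16.0 CPM). HOXB3 had 358 (34.5 CPM) and 830 (37.98 CPM), and HOXB2, a hindbrain gene, 152 (14.6 CPM) and 362 (16.6 CPM). The 7456 exon bases of HOXB3 bring it to 4.86 ± 0.330 CPM per kb, near HOXB4 at 4.13 ± 0.176 and HOXB2 at 6.68 ± 0.580. HOXB1, which specifies the fourth rhombomere and the facial nerve, had 3 counts in sample 1 and 1 in sample 2, at 0.289 CPM (0.0596 to 0.845) and 0.0458 CPM (0.00116 to 0.255), at or under the limit a count of 0 allows. These counts are too few to order HOXB1 against HOXC5.

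HOXC, on chromosome 12 (53938765 to 54056030, plus strand), was expressed along its length except at HOXC5, with HOXC12 lower than its neighbours. HOXC4, at the 3′ end, was its highest member per kb (23.0 ± 1.37), with 623 counts (60.045 CPM) in sample 1 and 1428 counts (65.3 CPM) in sample 2. HOXC6 had 393 counts (37.9 CPM) and 836 (38.3 CPM). HOXC8 and HOXC9 are thoracic genes of the spinal cord and ribs. HOXC8 had 347 (33.4 CPM) and 711 (32.5 CPM), and HOXC9 321 (30.9 CPM) and 640 (29.3 CPM). Per kb they were nearly level, at 17.5 ± 0.341 for HOXC8 and 17.9 ± 0.696 for HOXC9. HOXC10, a lumbar gene, had 296 (28.5 CPM) and 501 (22.9 CPM), and HOXC11 353 (34.0 CPM) and 793 (36.3 CPM). HOXC13, needed for hair and nails, had 315 (30.4 CPM) and 557 (25.5 CPM). HOXC10, HOXC11 and HOXC13 lay between 10.8 and 11.5 CPM per kb, while HOXC12 averaged 9.39 ± 1.28 CPM, or 2.82 ± 0.385 CPM per kb. As in HOXD, paralog 12 was thus under both of its neighbours.

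HOXC5 had 2 counts (0.193 CPM) and 5 counts (0.229 CPM) between HOXC4 and HOXC6. GENCODE 29 places exons of other genes of the table on 59.9% of the HOXC5 exon bases, and 41.1% of its 50-base stretches are unique to it, so reads that fit several genes could be lost from HOXC5. The overlapping genes, a processed transcript also named HOXC5 and the read-through gene AC012531.2, had 0 counts in both samples. How the authors' counting treated such reads was not stated in any source used here, and its part in the low value was not tested.

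HOXA, on chromosome 7 (27100354 to 27200106, minus strand), was the lowest cluster per kb of annotated exons. On that length 1 member, HOXA5, was well above the rest. HOXA5, a lung and thoracic gene at chr7:27141052-27143668, had 415 counts (40.0 CPM) in sample 1 and 820 counts (37.5 CPM) in sample 2, or 22.7 ± 1.03 CPM per kb. HOXA10, a uterine and blood gene, had 425 (41.0 CPM) and 926 (42.4 CPM), or 11.2 ± 0.269 per kb. HOXA9, a leukaemia-associated regulator of blood progenitors, had 276 (26.6 CPM) and 558 (25.5 CPM), or 8.61 ± 0.249 per kb. Per kb of annotated exons HOXA5 thus stood above the next HOXA genes with intervals that did not meet in either sample. The size of that gap, and whether the intervals stay apart, depends on the length used, and HOXA10 had the higher CPM in both samples. The exon union is 1707 bases in HOXA5, 3707 in HOXA10 and 3029 in HOXA9, and the median transcript 993, 1378.5 and 745. HOXA11, one of the kidney-forming HOX11 paralogs, had 195 (18.8 CPM) and 326 (14.9 CPM). HOXA13 had 101 (9.73 CPM) and 242 (11.1 CPM), and HOXA3, a thymus and parathyroid gene, 229 (22.1 CPM) and 416 (19.0 CPM). Per kb HOXA13 averaged 2.05 ± 0.186, so it was the lowest of its paralog group, in which HOXD13 was the highest. HOXA4 averaged 6.54 ± 0.524 CPM, HOXA6 6.83 ± 0.151 CPM and HOXA7 8.07 ± 2.35 CPM, while HOXA2, which patterns the second pharyngeal arch, averaged 1.801 ± 0.366 CPM.

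**Figure D2:**
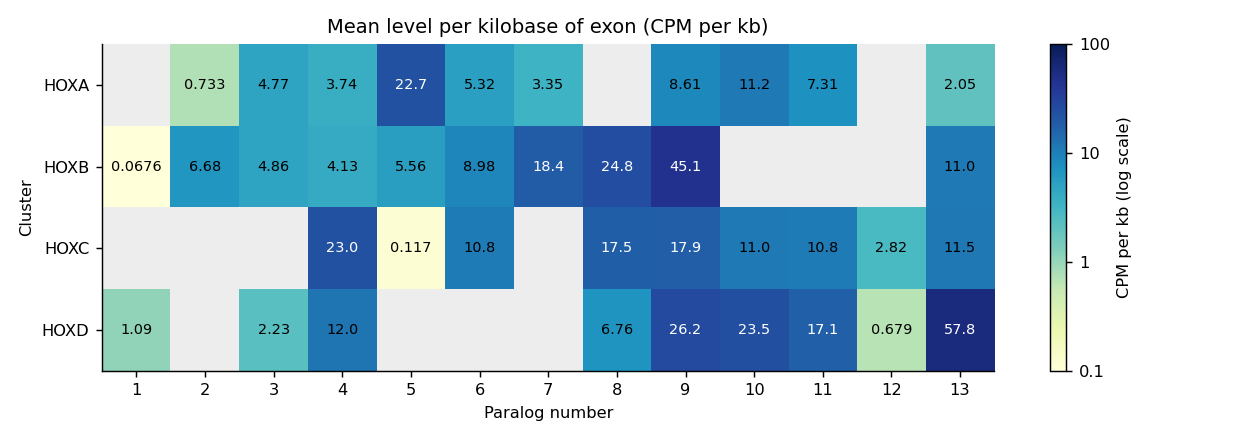
Mean CPM per kilobase of exon over the 2 samples for each HOX gene (colour on a log scale, value printed in each cell), clusters in rows and paralog numbers in columns; grey cells hold no gene of the set. The darkest cells are HOXD13 at 57.8 and HOXB9 at 45.1, and the palest are HOXB1 and HOXC5.

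By cluster, HOXD held 32.6% ± 1.35 of the summed HOX level per kb, HOXB 28.7% ± 0.379, HOXC 23.3% ± 0.783 and HOXA 15.4% ± 0.949, and the same order stood in each sample. Of the CPM without division by length, HOXB held 30.5% ± 0.443, HOXD 29.5% ± 1.19, HOXC 23.9% ± 0.675 and HOXA 16.2% ± 0.958. The order of HOXB and HOXD thus turned with the scale. In 9 members (HOXA4, HOXA9, HOXB4, HOXB6, HOXC4, HOXC5, HOXC6, HOXD10 and HOXD11) at least 10% of the exon bases also belong to another gene of the table on the same strand, so the split of reads there is uncertain. HOXD10 and HOXD11 share 452 such bases, HOXC4 and HOXC6 484, and HOXB3 and HOXB6 433. Without the 9, HOXB held 35.9% of the summed CPM and HOXD 27.1%.

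By paralog number, group 9 held 21.6% ± 0.289 of the summed level per kb and group 13 18.2% ± 0.839, ahead of group 8 with 10.8% ± 0.450 and group 10 with 10.1% ± 0.168. Group 12 held 0.772% ± 0.0833 and group 1 0.257% ± 0.0284. Groups differ in their number of members, 2 to 4 here. Paralogs 1 to 3, with 7 members, had a median of 2.23 CPM per kb, paralogs 4 to 8, with 15 members, 8.98, and paralogs 9 to 13, with 16 members, 11.1. The last set held 58.8% and 58.3% of the summed level per kb in samples 1 and 2, and the first 4.44% and 4.60%. Within clusters, Spearman's rho of paralog number with the level per kb was 0.842 in HOXB (10 genes), 0.45 in HOXD (9 genes), 0.236 in HOXA (10 genes) and -0.15 in HOXC (9 genes). These are correlations across genes of the same 2 libraries, and genes are not independent replicates. The rank order by level thus followed position most closely in HOXB and did not do so in HOXC.

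**Figure D3:**
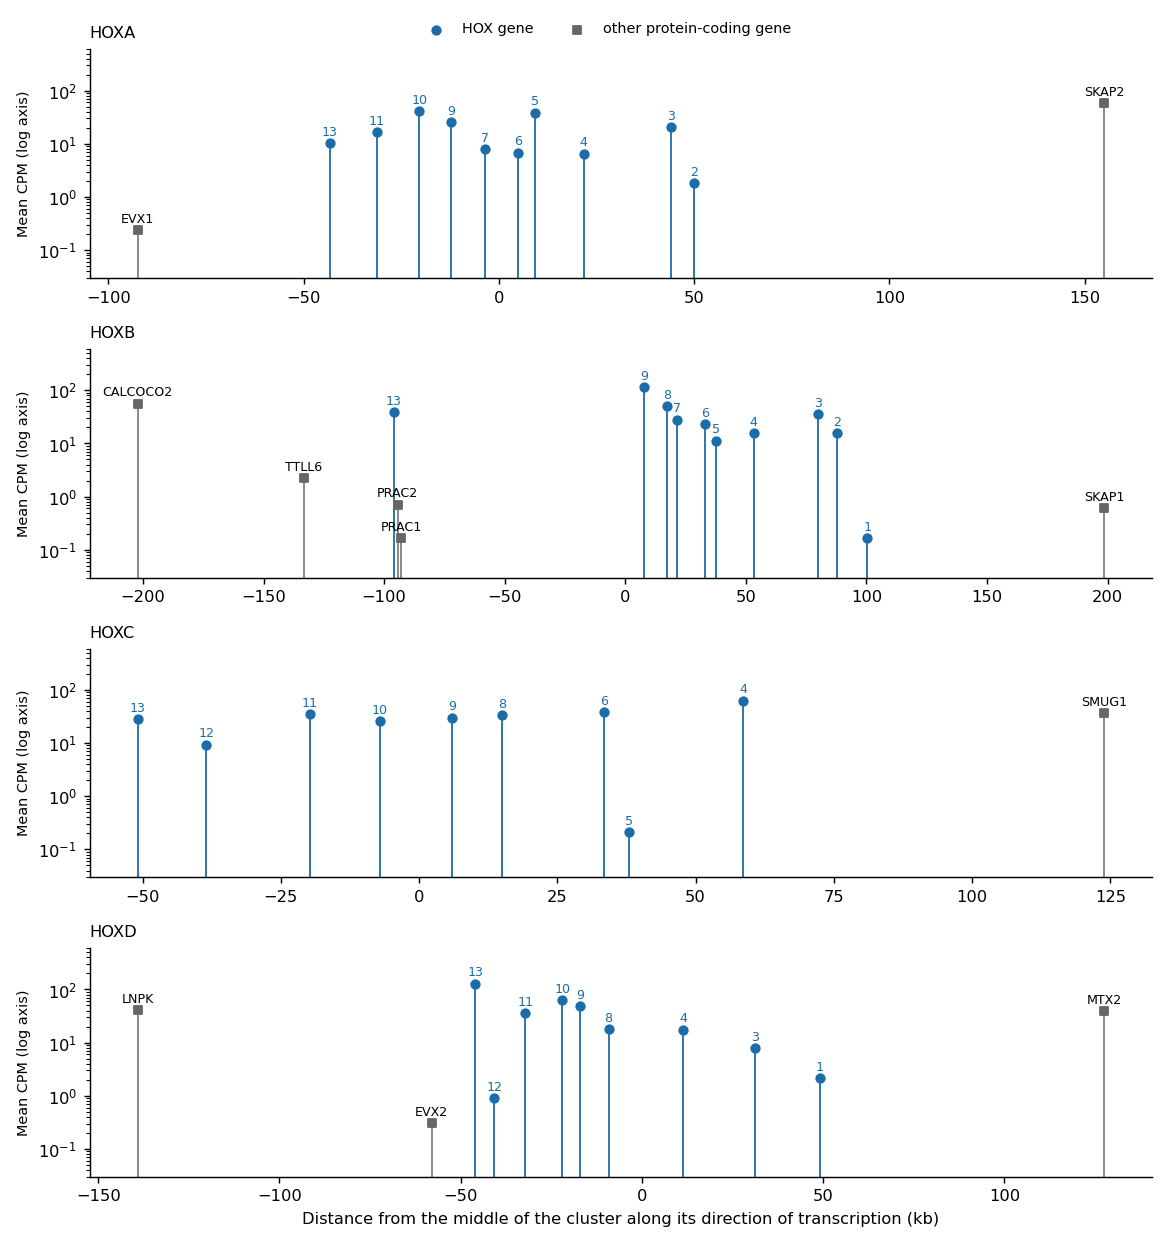
Mean CPM (log axis) of HOX genes (blue circles, labelled by paralog number) and nearby protein-coding genes (grey squares) by distance along each cluster's direction of transcription, in kb from the middle of the cluster; HOX genes stand at their 3′ end and other genes at the edge nearest the cluster. The lines only link a point to the axis, and EVX1, EVX2, PRAC1 and PRAC2 lie under 1 CPM beside HOX genes of 10.4 to 129 CPM.

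Of the listed protein-coding neighbours outside the HOX family, those nearest the paralog 13 genes were low in HOXA, HOXB and HOXD, but not in HOXC. EVX2, a homeobox gene 8.98 kb from HOXD13, was measured at 0.193 and 0.412 CPM in samples 1 and 2. EVX1, its paralog 42.6 kb from HOXA13, had 0.386 and 0.0915 CPM. PRAC2, inside HOXB on the 3′ side of HOXB13 and 5 bases from it, had 0.771 and 0.641 CPM, and PRAC1, 2.24 kb from it, 0.193 and 0.137 CPM. Each of these 4 neighbours was thus under 1 CPM in both samples, beside HOXD13, HOXA13 and HOXB13 at means of 129, 10.4 and 38.2 CPM. On the 5′ side of HOXB13, TTLL6, 33.1 kb away, averaged 2.27 ± 0.481 CPM. On the 5′ side of HOXC13, CALCOCO1, 211 kb away, averaged 58.9 ± 7.47 CPM. Further out, LNPK and MTX2, on either side of HOXD, averaged 40.9 ± 1.56 and 39.6 ± 0.522 CPM, and SKAP2 beyond HOXA2 58.5 ± 2.24 CPM. SKAP1, beyond HOXB1, was at 0.578 and 0.641 CPM. Of 17 matched neighbour genes in the list, 12 reached 1 CPM, with a median of 39.6 CPM, led by HNRNPA3 (484 ± 3.31 CPM).

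Non-coding transcripts of the clusters were present at lower levels than most HOX genes. Of 24 listed, which include 6 microRNA genes, 16 reached 1 CPM, with a median of 2.35 CPM over the list. HAGLR, which starts beside HOXD1, averaged 25.4 ± 1.93 CPM and HOTAIR, from HOXC, 19.5 ± 0.116 CPM. HOXD-AS2 averaged 15.6 ± 0.890 CPM and HOXB-AS3 12.01 ± 1.72 CPM. HOTAIRM1 was at 8.52 ± 1.41 CPM, HOXA-AS2 at 7.30 ± 1.19, HOXA-AS3 at 6.06 ± 0.0226 and HOXA10-AS at 5.47 ± 1.33. HOXC-AS1, HOXB-AS4, HOXC-AS2, HOXC13-AS, HOXB-AS1, HOXA11-AS, HAGLROS and HOXB-AS2 lay between 1.03 and 3.87 CPM. HOTTIP, which in other cells acts on the 5′ HOXA genes, averaged 0.747 ± 0.238 CPM, and HOXC-AS3 0.612 ± 0.0888 CPM. Per kb HAGLR, at 4.98 CPM, was above HOXD1, at 1.09 CPM, and 58.1% of the HOXD1 exon bases have exons of another gene on the opposite strand. The same share was 62.5% in HOXA7, 39.3% in HOXA6 and 31.1% in HOXA11. The library was directional, but the strand setting of the counting was not stated in any source used here, so reads of these genes and of their antisense partners cannot be told apart.

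The clusters also hold microRNA genes of the miR-10 and miR-196 families, which are known to pair with HOX transcripts. Mature sequences from RefSeq (GRCh38.p14) are shown, with the seed, bases 2 to 8, in capitals, because miR-196a and miR-196b share a seed while being encoded in different clusters.
hsa-miR-196a-5p: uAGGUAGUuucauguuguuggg
hsa-miR-196b-5p: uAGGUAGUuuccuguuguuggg
hsa-miR-10a-5p: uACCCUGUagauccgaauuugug
hsa-miR-196a-5p lies at chr12:53991762-53991783 (plus strand) in HOXC and at chr17:48632532-48632553 (minus) in HOXB, hsa-miR-196b-5p at chr7:27169528-27169549 (minus) in HOXA, and hsa-miR-10a-5p at chr17:48579904-48579926 (minus) in HOXB. The letters ACTACCT, the match to the miR-196 seed on the transcript strand, occur in the annotated 3′ UTR of 8 of 38 members (HOXA5, HOXA7, HOXA9, HOXB1, HOXB6, HOXB7, HOXB13 and HOXC8), and in 7.15% of 19146 genes. ACAGGGT, the match to the miR-10a seed, occurs in HOXA3 and HOXB3, 2 of 38, and in 12.8% of the genes. HOXB8 holds the site through which miR-196 is known to cleave its transcript, at bases 411 to 432 of an annotated 3′ UTR of 856 bases, shown with the bases that pair with each miRNA by Watson-Crick rules in capitals.
HOXB8 site with hsa-miR-196a-5p: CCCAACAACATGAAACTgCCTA
HOXB8 site with hsa-miR-196b-5p: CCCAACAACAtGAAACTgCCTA
Of the 22 bases, 21 form Watson-Crick pairs with miR-196a and 20 with miR-196b. Opposite the seed, 1 base is a G that faces a U (a G:U wobble), which is why HOXB8 is not among the 8. Such letters are a description and not a measure of repression. The HOXB8 transcript, at 24.8 ± 1.91 CPM per kb, was the fourth highest of the 38. Total RNA libraries do not measure mature miRNAs: MIR10B had 11 and 12 counts, MIR196A1 5 and 10, MIR196A2 0 and 5, and MIR10A, MIR196B and MIR615 had 0 counts in both samples.

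Genes of the machinery around HOX proteins were taken from lists by role. HOX proteins bind DNA with TALE homeodomain partners, and all 9 of those listed reached 1 CPM (median 35.2 CPM), led by PBX2 (110 ± 0.448 CPM), with MEIS3 at 69.5 ± 5.65 CPM. On the per kb scale PBX2, at 25.4, was near HOXD9, at 26.2, but the median of the 9 was 3.41, beside 8.80 over the HOX members. All 33 Polycomb genes listed reached 1 CPM (median 52.9 CPM), led by CBX6 (334 ± 24.0 CPM), RBBP7 (193 ± 3.79) and CBX2 (192 ± 7.45). All 25 of the MLL/COMPASS list did as well (median 92.7 CPM), led by HCFC1 (525 ± 15.1 CPM), SETD1A (322 ± 1.46) and KMT2D (312 ± 13.5). Transcripts of the complexes known to silence HOX clusters and of those known to keep them active were thus measured in the same libraries.

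Of 25 upstream regulators, 21 reached 1 CPM (median 51.0 CPM), led by YY1 (378 ± 1.25 CPM), SMC1A (242 ± 14.3) and RAD21 (219 ± 12.1). Of 16 nephric genes that work with or under HOX10 and HOX11, 15 reached 1 CPM (median 15.3 CPM), led by FOXC1 (272 ± 1.97 CPM), with SALL1 at 63.2 ± 1.28 CPM. The HOX10 and HOX11 paralogs themselves ranged from 7.31 CPM per kb in HOXA11 to 23.5 in HOXD10.

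Few HOX genes differed between the samples beyond counting error. Each gene's counts were compared by a 2-sided exact binomial test on the scaling of the deposited CPM, with Benjamini-Hochberg adjustment over the 15530 genes at 1 CPM or more. It compares 2 libraries, not conditions. Of 35 HOX members tested, 4 passed an adjusted p under 0.05, beside a background of 8.71% of all genes tested, so the count shows nothing particular to the HOX genes. Sample 2 was higher for 2 of the 4 and lower for 2, and 4.29% of all genes were called higher and 4.42% lower. With column totals as the scaling those shares were 3.66% and 5.7%. At an unadjusted p under 0.05 the count was 9 of 35 HOX members and 3293 of all 15530 genes tested.

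HOXD10 was at 57.5 CPM in sample 1 against 68.7 CPM in sample 2, a log2 ratio of 0.25 (exact binomial test, adjusted p = 0.00552). HOXD8 had 15.4 and 20.1 CPM, a log2 ratio of 0.36 (exact binomial test, adjusted p = 0.0451). HOXC10 had 28.5 and 22.9 CPM, a log2 ratio of -0.30 (exact binomial test, adjusted p = 0.0425). HOXA7 had 101 counts (9.73 CPM) and 140 counts (6.41 CPM), the lowest ratio of the set at -0.54 (exact binomial test, adjusted p = 0.0279), while HOXA-AS3, on its opposite strand, stood at 6.07 and 6.04 CPM. Ratios are log2 of CPM + 1 in sample 2 over sample 1. HOXD8 lost its call with column totals (adjusted p = 0.0556) and with a minimum of 0.5 CPM (0.0509), HOXC10 with DESeq2 size factors (0.0580), and HOXD10 alone was left when every gene with a count was tested (exact binomial test in each case).

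**Figure D4:**
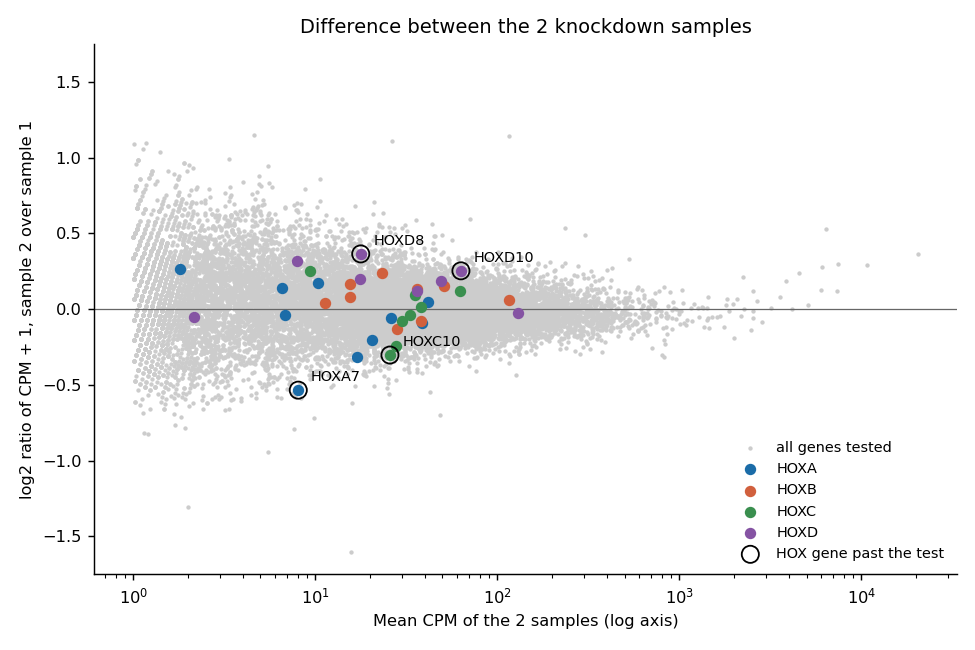
Log2 ratio of (CPM + 1) in sample 2 over sample 1 against mean CPM (log axis) for all genes tested (grey) and the 35 HOX members at 1 CPM or more (coloured). The HOX points run from -0.54 (HOXA7) to 0.36 (HOXD8), and the 4 that passed the binomial test are labelled.

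The median log2 ratio of the 35 HOX members was 0.06 (SD across genes 0.20), beside 0.01 (0.21) over all genes tested. Over the 9018 genes tested at 10 to 150 CPM, a range that holds 28 of the members, the median was 0.002 (SD 0.15). In sample 2, 21 members were higher and 14 lower, beside 8241 higher and 7289 lower among all 15530 genes tested. Each of the 35 lay within 1.5-fold on this scale of CPM + 1, as did 15263 of the 15530 genes tested. By cluster the median was -0.05 in HOXA, 0.08 in HOXB, -0.01 in HOXC and 0.19 in HOXD, where 6 of 8 were higher in sample 2. Neighbouring HOXD8, HOXD9 and HOXD10 were each higher in sample 2, at log2 ratios of 0.36, 0.19 and 0.25, of which HOXD9 did not pass (exact binomial test, adjusted p = 0.112).

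Genes of the other lists passed the same test as follows, beside the background of 8.71% of all genes tested. No list was tested as a set. HOXC-AS2, at 2.12 and 4.30 CPM, was the 1 non-coding transcript called of 16 tested (exact binomial test, adjusted p = 0.0296). In the Polycomb list CBX6 was lower in sample 2, at 351 and 317 CPM, the 1 call of 33 genes tested. In the MLL/COMPASS list KDM6B was higher, at 183 and 201 CPM, the 1 call of 25. Among 21 upstream regulators tested SMC1A was higher and RAD21 and RXRA lower, and among 12 neighbours tested CBX5 and CALCOCO1 were higher. No gene of the TALE, nephric or HEK293T lists was called, of 9, 15 and 10 tested, with smallest adjusted p of 0.0980, 0.0650 and 0.0917 (exact binomial test). COL1A1, 1 of 3 fibroblast markers tested, was higher in sample 2, at 54.0 and 65.4 CPM.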

How the data were processed

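RNA-seq was analysed for 2 HEK293T samples of 1 group, FKBP5 knockdown. The counts deposited by the authors are raw, whole-number values for each Ensembl identifier. The deposited CPM are those counts times 1 constant per library, with whole reads recovered within a tolerance of 1e-06, on library sizes 3.78% and 2.68% above the column totals. STAR 2.7.7a, edgeR and the build GRCh38 are listed without roles, per the submitters' processing notes. No source used here states the counting program, its strand setting or the gene models. Symbols came from the reference tables, and exon unions, overlaps and 3′ UTRs from GENCODE 29 on GRCh38. Sequences came from RefSeq tables on GRCh38.p14, in which 20 of 38 members had a promoter window.

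Levels are given with exact 95% Poisson intervals, which cover counting error only. PCR copies without molecular identifiers are not independent molecules. A gene counted as expressed at a mean of 1 CPM. The binomial test doubled the smaller tail, was tested on simulated data and was run over all genes before the HOX rows were taken. Ratios used a pseudocount of 1 CPM. Members at 10 CPM or more, the highest of each cluster and those past the test are given in each sample, those at 1 to 10 CPM by mean and SD, and of the 12 other lists the leading genes, except some items that are not reported here. Genes outside that rule (neighbours, transcripts under 1 CPM, HOXD1 beside HAGLR) were named after their values were seen. The members and lists were chosen with earlier results of these data known. Alternatives were other scalings (edgeR 4.0.16 TMM, DESeq2 1.42.0 size factors, column totals), filters, pseudocounts, lengths and each sample alone. Python 3.11.15, pandas 2.3.3, numpy 2.4.6, scipy 1.17.1 and R 4.3.3 were used.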

Additional observations from a re-analysis of the deposited data

How the results depend on the processing

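With 1 group and no control analysed, none of these values bears on the knockdown itself. No paired analysis was possible because the samples form 1 group and no groups were compared. Of 38 members, 36, 34 and 33 were expressed at a minimum of 0.5, 2 and 5 CPM, and 35 in each sample alone. The count of HOX genes past the exact binomial test was 1 when every gene with a count was tested, which adds genes to the adjustment, and 3 or 4 under the other scalings and filters and under the definition of the 2-sided p added after seeing the data. The 9 members whose exons overlap another gene of the table on the same strand by 10% or more were left out in turn. HOXD3 and HOXD4 were kept, because AC009336.2, which overlaps them, has no row in the count table. The clusters' shares of summed CPM were then 17.5% in HOXA, 35.9% in HOXB, 19.5% in HOXC and 27.1% in HOXD, so HOXB led HOXD by more. Over all 38 members, the shares of the summed level per kb were 28.7% in HOXB and 32.6% in HOXD. From 1 sample at a time the shares of summed CPM over all members ran from 15.5% to 16.8% in HOXA, 30.2% to 30.9% in HOXB, 23.4% to 24.3% in HOXC and 28.6% to 30.3% in HOXD. Of the 10 highest members per kb, 9 were shared with the longest transcript as length, 7 with the median transcript, under which HOXB8 led, and 9 to 10 with 1 sample alone. The median log2 ratio of HOX members ran from 0.05 to 0.08. The order per kb is limited by the annotated lengths. HOXD3 and HOXD4 share 62.2% and 80.5% of their exon bases with AC009336.2, but none with a same-strand gene that has a row in the count table.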
